A study of Mus musculus with 48 samples.

Results

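The V segments of the T cell receptor beta and alpha genes were examined in RNA-seq libraries of mouse spleen regulatory T cells (Tregs) and conventional T cells (Tcons). A V segment was included when its symbol began with Trbv or Trav and its mean expected count over the 32 Treg libraries was at least 20. This rule took 58 of the 163 V rows of the count matrix, which holds 53345 genes in all: 21 of 35 Trbv rows and 37 of 128 Trav rows. The rule used a mean over all treatments. In PBS Tregs 6 of these segments, Trav5-1, Trav6d-5, Trav16d-dv11, Trav10n, Trav6-4 and Trav3-3, had means of 9.38 to 18.62 counts and passed the minimum through the IL-2 treated Tregs, so their calls against PBS are tied to how they were chosen and are no support for a rise. Trav6n-5, with means of 25.54 counts in PBS Tregs and 19.17 in IL-2 Tregs, passed through the PBS Tregs, so its call is no support for a fall.

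C57BL/6 female mice of 8 to 12 weeks received 2 intraperitoneal doses of 500 ug of either an isotype control antibody or an antibody that blocks MHC class II, on day -1 and day 0. On day 0 they were given PBS or 25 ug of WT IL-2, H16R or 3x under the skin, and spleens were taken on day 4. WT IL-2 is human IL-2 fused to an Fc, H16R is an attenuated version (a mutein) with a single substitution, and 3x is a further attenuated mutein with several substitutions. Tregs were the CD25-selected fraction and Tcons the CD25-negative remainder, so both are enriched populations rather than single sorted cell types. The 4 treatments in the 2 antibody arms gave 8 Treg groups of 4 mice, and Tcons of 2 mice of each group gave 8 Tcon groups, 48 libraries in all. All groups, controls included, received an antibody, and no group was without one.

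Each alpha beta T cell carries a receptor whose chains are joined from a V and a J segment (and a D segment in the beta chain) by recombination in the thymus, next to a constant gene. The V segment encodes the first contact loops of the chain, CDR1 and CDR2, and the start of CDR3, the loop made at the joint. In a bulk library the share of reads on each V segment is thus a coarse picture of which receptors a population uses: it shows neither the joint nor the pairing of the chains, and many clones share a V segment. Fewer cells of a type and less RNA per cell cannot be told apart in these libraries. Invariant NKT cells pair the Trav11 segment mostly with Trbv13, Trbv29 or Trbv1, and segments with "dv" in their name also serve delta chains of gamma delta T cells.

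The beta segments on which the results turn are printed below by their last 60 annotated bases, 5′ to 3′ on the coding strand, where each hands over to CDR3. The capitals mark the codon of the conserved cysteine at which CDR3 begins. Positions are those of the genes on GRCm38, and all lie on the plus strand except Trbv31, which sits inverted beyond the beta constant genes. Trbv3 is at chr6:41048290-41048828, Trbv12-1 at chr6:41113550-41114067, Trbv12-2 at chr6:41118851-41119364, Trbv13-1 at chr6:41116007-41116468, Trbv13-2 at chr6:41121396-41121832 and Trbv13-3 at chr6:41130147-41130585. Further along are Trbv14 at chr6:41135145-41135616, Trbv15 at chr6:41141188-41141658, Trbv16 at chr6:41151740-41152230, Trbv29 at chr6:41271394-41271881 and Trbv31 at chr6:41557691-41558452.
Trbv3: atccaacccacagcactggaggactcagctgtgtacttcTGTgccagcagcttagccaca
Trbv12-1: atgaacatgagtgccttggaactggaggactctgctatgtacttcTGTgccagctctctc
Trbv12-2: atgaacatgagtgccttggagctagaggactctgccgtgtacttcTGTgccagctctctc
Trbv13-1: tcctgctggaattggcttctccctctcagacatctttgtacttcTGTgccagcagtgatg
Trbv13-2: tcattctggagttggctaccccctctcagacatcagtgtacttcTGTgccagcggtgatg
Trbv13-3: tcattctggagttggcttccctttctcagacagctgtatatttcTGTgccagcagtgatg
Trbv14: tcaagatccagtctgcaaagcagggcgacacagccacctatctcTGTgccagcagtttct
Trbv15: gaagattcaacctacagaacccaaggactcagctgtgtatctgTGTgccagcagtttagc
Trbv16: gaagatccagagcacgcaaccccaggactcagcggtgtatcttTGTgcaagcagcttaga
Trbv29: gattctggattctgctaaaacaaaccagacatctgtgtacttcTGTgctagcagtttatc
Trbv31: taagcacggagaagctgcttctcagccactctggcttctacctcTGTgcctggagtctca

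The alpha segments are shown the same way, because the mouse Trav locus holds near copies of whole stretches (the plain, "d" and "n" names) and the likeness bears on how reads could be assigned. Trav14-1 is at chr14:53554022-53554558, Trav14-2 at chr14:53640701-53641225, Trav14-3 at chr14:53763173-53763694, Trav14d-3-dv8 at chr14:53078452-53079045, Trav7-3 at chr14:53443249-53443839 and Trav9n-4 at chr14:53294341-53295030. Trav11 at chr14:53519303-53519859 and Trav11d at chr14:52824357-52824912, the alpha segments of invariant NKT cells, are printed because their cells are empty in all 48 libraries.
Trav14-1: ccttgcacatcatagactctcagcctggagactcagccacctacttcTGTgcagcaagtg
Trav14-2: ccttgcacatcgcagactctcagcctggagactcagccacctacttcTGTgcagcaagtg
Trav14-3: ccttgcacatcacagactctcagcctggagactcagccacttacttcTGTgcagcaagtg
Trav14d-3-dv8: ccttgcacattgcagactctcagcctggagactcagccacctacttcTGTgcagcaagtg
Trav7-3: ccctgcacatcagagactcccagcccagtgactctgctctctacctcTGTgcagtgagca
Trav9n-4: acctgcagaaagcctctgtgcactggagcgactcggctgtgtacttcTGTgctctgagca
Trav11: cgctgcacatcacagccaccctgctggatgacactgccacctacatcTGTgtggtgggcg
Trav11d: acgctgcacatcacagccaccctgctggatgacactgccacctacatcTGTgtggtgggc

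Many alpha rows had no value. Of the 128 Trav rows, 58 were empty in at least 46 libraries and 56 of these in all 48, and 40 of the 58 had every stretch of 31 bases present in another V row. A further 33 Trav rows were under the minimum. Trav11 shares 99.68% of its 31-base stretches with Trav11d, and neither has a value, so the invariant NKT receptor could not be followed here. Trav1, the alpha segment of MAIT cells, had a mean of 13.81 counts in Tregs and stayed under the minimum. Among the 37 Trav members the median share of 31-base stretches found in another V row was 65.02%, and 28 members were above 50%, so a Trav value can hold reads of a copy. Trav14-1 was among the more distinct ones, with 32.52% of its stretches shared, while Trav7-3 had 79.03% and Trav9n-4 94.34%. Among the Trbv members the highest was 11.29%.

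The members held 99.64% to 99.97% of all Trbv counts and 88.22% to 95.61% of all Trav counts in the Treg libraries. Trbv counts totalled 2914 to 15664 per Treg library and 7356 to 12615 per Tcon library, and Trav counts 731 to 4637 and 2279 to 4529. The shallowest of all was isotype PBS replicate 4, which holds the lowest total of each locus and lacks a value for Trav14n-3, Trav14-2 and Trav3-3. Those 3 segments were left out of the Treg fits, so 55 members were tested there, 56 among Tcons, and all 58 between Tregs and Tcons. Just inside the minimum of 20 were Trav6n-5 (20.77 mean counts), Trav6-4 (23.53) and Trav3-3 (23.68), and just outside were Trav13-4-dv7 (19.76) and Trav12-1 (19.64). Total library depth was 18.28 M to 51.24 M counts in Tregs and 31.31 M to 51.95 M in Tcons.

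Foxp3, the factor that defines Tregs, stood at 692 to 1179 CPM (counts scaled to the library total) in the Treg libraries and 48.4 to 186 in the Tcon libraries, so the fractions match their labels with Foxp3 RNA present in both. Markers of other cells were above 0 in both fractions, and most of them ranged lower in Tregs. The summed NK and NKT cell markers were 10.4 to 59.1 CPM in Tregs and 62.0 to 192 CPM in Tcons, the gamma delta T cell markers 19.0 to 67.7 and 121 to 187 CPM, and the CD8 markers 6.46 to 45.5 and 6.91 to 75.6 CPM. In MHC II block PBS mice the CD8 markers had medians of 8.36 CPM in Tregs and 7.23 CPM in Tcons. B cell markers ranged from 23.3 to 552 CPM in Tregs, highest in isotype PBS replicate 1, and myeloid markers from 7.21 to 498 CPM, highest in MHC II block WT IL-2 replicate 1. In Tcons they ranged from 107 to 856 and from 40.0 to 592 CPM. In MHC II block WT IL-2 mice the B cell markers reached 522 CPM in a Treg library, against 227 to 286 CPM in the Tcons. A V share counts the receptors of every T cell in a library, whichever kind it is.

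Trbv3 was the most used beta segment in Tregs. It took 15.5 ± 1.0% of Trbv counts in Tregs (SD, n = 32) and led by count in 32 of 32 Treg libraries and in 15 of 16 Tcon libraries. On the share of FPKM, which corrects for segment length, it led in 32 of 32 Treg libraries but in 7 of 16 Tcon libraries. Trbv13-2 led in the other 9, with a mean FPKM share in Tcons of 11.4 ± 1.4% against 10.4 ± 1.3% for Trbv3 (SD, n = 16). On the FPKM share Trbv3 stood in Tregs 5.16 percentage points above Trbv13-2, the next in order on that scale, with a pooled SD of 0.98. By count the next was Trbv1. Below Trbv3 the order of the FPKM shares was not resolved. Trbv13-2 exceeded Trbv15 in 24 of 32 libraries by a mean of 0.82 points, less than the SD of 0.94, and Trbv15, Trbv5 and Trbv1 lay within 0.13 and 0.07 points of each other. Trbv13-3 stood 1.35 points above Trbv16 with an SD of 1.07. The 5 leading segments held 45.0% of Trbv counts in Tregs and 44.7% in Tcons, and the 10 leading segments 74.7% and 74.3%.

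The alpha repertoire was spread over more segments and had no clear leader. The 5 leading Trav segments held 29.8% of Trav counts in Tregs and 28.8% in Tcons, and the leading 10 held 47.9% and 46.8%. By count Trav6-7-dv9 led in 13 of 32 Treg libraries and Trav9n-4 in 12 of 16 Tcon libraries. Per length Trav6-7-dv9 and Trav4-4-dv10 differed by a mean of 0.28 points, with the first higher in 14 of 32 libraries, while Trav4-4-dv10 exceeded Trav9n-4 in 30 of 32 libraries by 2.54 points. By family, Trav9 took 18.8% of Trav counts in Tregs, Trav4 11.3%, Trav14 11.1% and Trav6 11.0%.

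Tregs and Tcons of the same 16 mice used the same segments at different shares. Of the 58 segments, 36 (62.1%) differed in share at an adjusted p under 0.1, against 72.5% of all tested genes, and in each comparison of shares below the proportion of V segments called was under that of all genes. Values in parentheses after a share are log2 differences ± SE, followed by the adjusted p of edgeR's quasi-likelihood test. In Tregs 19 were higher (34.3% of all genes were) and 17 lower (38.3%). Of the 21 beta segments 10 were higher and 10 lower, and of the 37 alpha segments 9 were higher and 7 lower. The segments in each locus are parts of a whole, so a rise of some entails a fall of others. Where so many genes differ the 0.1 threshold is lenient (a raw p of up to 0.063 passed here), so the number of mice is given beside the tests.

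Among the called segments Trbv12-1 had the largest difference on the log2 scale. Its share was 3.12% to 4.94% in the Tregs of these mice and 1.80% to 2.78% in their Tcons, so the ranges did not overlap, and the mean was 3.93 ± 0.43% against 2.17 ± 0.26% (SD, n = 16). The difference on the log2 scale was 0.86 ± 0.06 (SE, adjusted p = 4.0e-10), in the same direction in 16 of 16 mice. Its neighbour Trbv12-2, of the same family, differed by 0.09 ± 0.05 (adjusted p = 0.088). Trbv3 was at 15.3 ± 0.89% in Tregs and 12.1 ± 1.4% in Tcons, higher in Tregs in 16 of 16 mice (0.35 ± 0.04, adjusted p = 3.1e-07). Trbv26 rose from 1.25% in Tcons to 1.68% in Tregs (0.42 ± 0.07, adjusted p = 3.4e-05, 15 of 16 mice) and Trbv15 from 5.99% to 7.10% (0.26 ± 0.06, adjusted p = 0.0015, 15 of 16 mice).

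**Figure D1:**
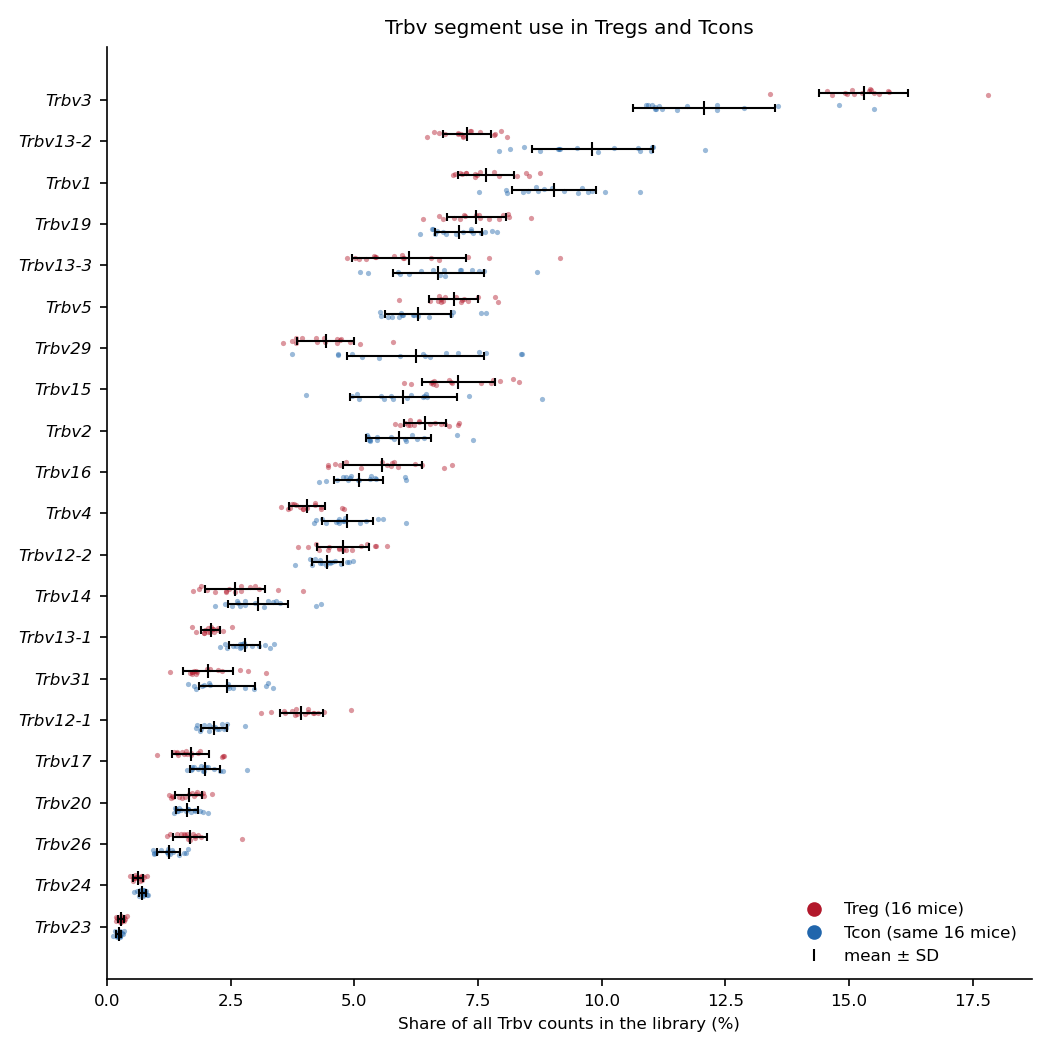
Share of Trbv counts (percent) taken by the beta segments in the Tregs and the Tcons of the same mice; points are libraries and marks are means. Trbv12-1 lies between 3.12% and 4.94% in Tregs and between 1.80% and 2.78% in Tcons, and Trbv3 has the highest mean share of counts in both.

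All 3 Trbv13 segments were lower in Tregs. Trbv13-2 averaged 7.27 ± 0.49% in Tregs and 9.81 ± 1.2% in Tcons (-0.43 ± 0.05, adjusted p = 1.5e-07) and Trbv13-1 2.10 ± 0.20% and 2.78 ± 0.32% (-0.41 ± 0.05, adjusted p = 3.7e-07), each lower in 16 of 16 mice. Trbv13-3 was at 6.11% and 6.70%, lower in 13 of 16 mice (-0.14 ± 0.04, adjusted p = 0.0033). Summed, the Trbv13 family held 15.5% of Trbv counts in Tregs and 19.3% in Tcons and was lower in every mouse (-0.32 ± 0.03, adjusted p = 4.0e-08). Trbv29 (4.42 ± 0.58% against 6.24 ± 1.4%) was lower in 14 of 16 mice (-0.48 ± 0.09, adjusted p = 1.1e-04), Trbv1 (7.66% against 9.04%) in 15 of 16 (-0.24 ± 0.04, adjusted p = 2.3e-05), and Trbv4 (4.05% against 4.86%) in 16 of 16 (-0.26 ± 0.05, adjusted p = 1.2e-04). Trbv20 was the beta segment that did not pass (0.02 ± 0.07, adjusted p = 0.80).

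Among alpha segments the 5 tested Trav14 members were called lower in Tregs over all 16 mice, though Trav14-1, Trav14-2 and Trav14d-3-dv8 were higher in Tregs in 4, 3 and 3 of the 4 PBS mice. Trav14-3 was at 1.76 ± 0.26% in Tregs and 2.40 ± 0.35% in Tcons, lower in 16 of 16 mice (-0.45 ± 0.07, adjusted p = 9.1e-06). Trav14-2 was at 1.25% in Tcons and 0.899% in Tregs (-0.50 ± 0.10, adjusted p = 1.8e-04, lower in 13 of 16 mice) and Trav14-1 at 4.82% and 3.87% (-0.35 ± 0.10, adjusted p = 0.0048, 11 of 16 mice). Trav14n-3 was at -0.43 and Trav14d-3-dv8 at -0.21, each lower in 13 of 16 mice. Read by family, which does not depend on how reads were divided among the Trav14 copies, the share was 11.0% in Tregs and 13.9% in Tcons (-0.35 ± 0.06, adjusted p = 4.1e-05), higher in Tregs in 1 of 16 mice. Trav21-dv12 was also lower in Tregs (2.09% against 2.82%, -0.46 ± 0.11, adjusted p = 0.0016, 13 of 16 mice).

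Trav8n-2 was higher in Tregs (1.99 ± 0.63% against 1.40 ± 0.28%, 0.48 ± 0.10, adjusted p = 5.4e-04, 14 of 16 mice). Trav7-3 was higher in 16 of 16 mice (2.82% against 2.07%, 0.44 ± 0.09, adjusted p = 2.0e-04), and its near copy Trav7d-3 differed by 0.40 ± 0.12 (adjusted p = 0.0054, 13 of 16 mice). Trav4-4-dv10 was at 6.29 ± 0.82% in Tregs and 4.98 ± 0.67% in Tcons (0.34 ± 0.06, adjusted p = 9.8e-05, 15 of 16 mice). By family, Trav4 and Trav6 each held 9.38% of Trav counts in Tcons and 11.0% and 10.9% in Tregs. Trav7 held 6.50% and 7.71%, and Trav9 was at 18.7% in Tcons and 19.1% in Tregs (adjusted p = 0.55).

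**Figure D2:**
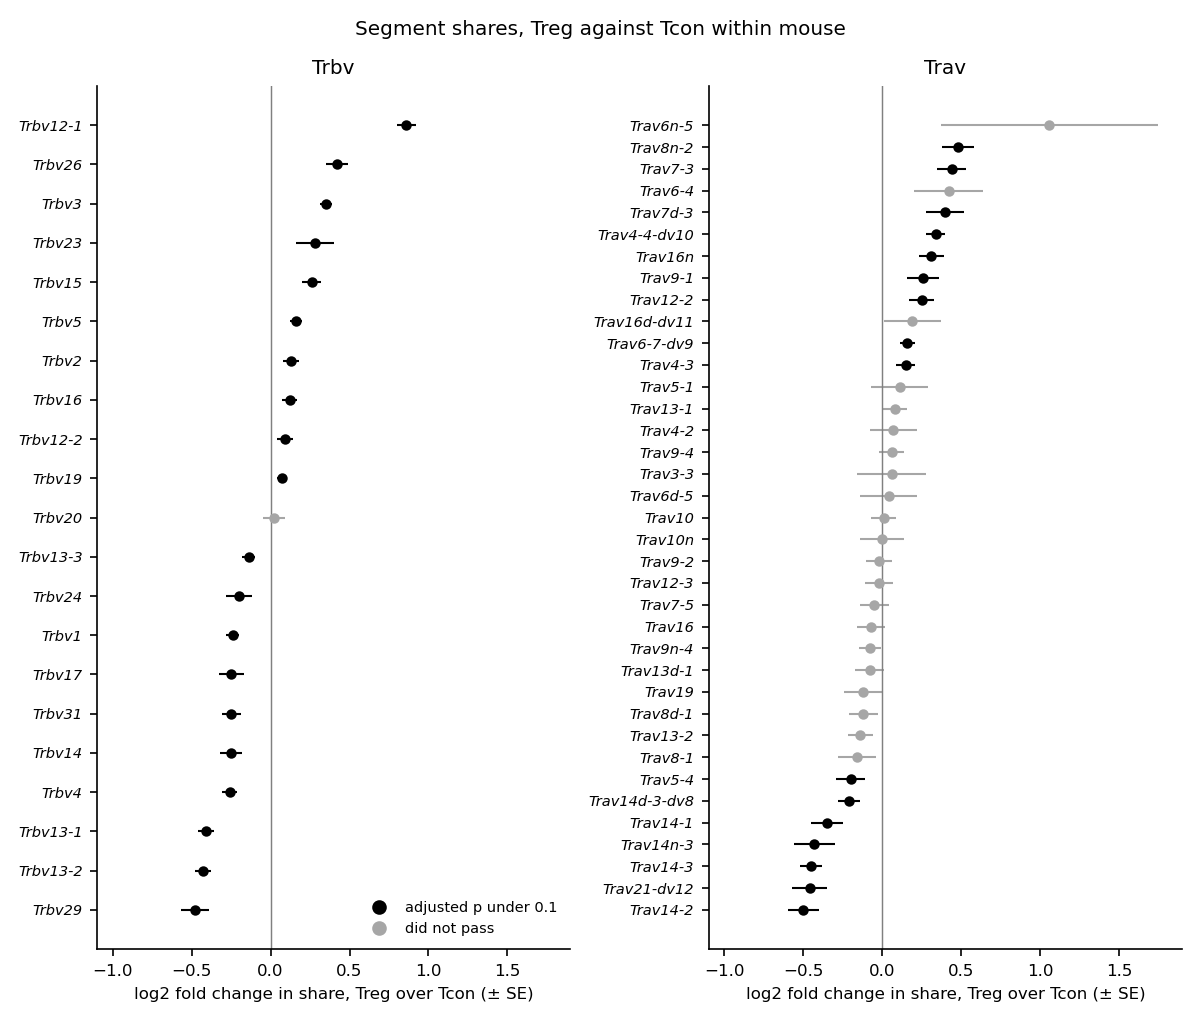
Log2 difference in share between Tregs and Tcons (edgeR, bars are ± 1 SE) for the V segments, with positive values higher in Tregs. Among the called segments Trbv12-1 stands farthest to the right at 0.86, and the Trbv13, Trav14 and Trbv29 segments lie to the left of 0.

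Markers of NK and NKT cells, of gamma delta T cells and of CD8 T cells moved with the same contrast. All 4 of the NK and NKT list were lower in Tregs, among them Zbtb16, the factor of NKT cell development (-1.79 ± 0.22), and Klrb1c (-2.21 ± 0.19). All 4 measured genes of the gamma delta list were lower as well, with the delta constant gene Trdc at -2.43 ± 0.12. Both CD8 markers were lower, Cd8a at -1.91 ± 0.21 and Cd8b1 at -0.19 ± 0.08. Segments of the invariant NKT beta chains (Trbv13, Trbv29 and Trbv1) were lower in Tregs, and so were the "dv" segments Trav14d-3-dv8 and Trav21-dv12, while the "dv" segments Trav4-4-dv10 and Trav6-7-dv9 were higher. The part of these other cells in the shares was not tested. Across segments the log2 difference had a correlation with the GC content of the segment of -0.39 over 21 Trbv segments and -0.05 over 37 Trav segments, given as a description.

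The Treg to Tcon difference was next compared between the 12 IL-2 treated mice and the 4 PBS mice of this set. It differed for 7 of 58 segments, against 32.8% of all tested genes. Trav14-1 was higher in Tregs than in Tcons in 4 of 4 PBS mice (5.52% against 4.93%) and in 1 of 12 IL-2 mice (3.33% against 4.78%), a change of -0.68 ± 0.17 in the log2 difference (adjusted p = 0.010). Trbv29 changed by -0.61 ± 0.15 (adjusted p = 0.0094), Trav14d-3-dv8 by -0.42 ± 0.14 (0.046) and Trav14-2 by -0.49 ± 0.20 (0.099). In the other direction were Trbv3 (0.28 ± 0.06, adjusted p = 0.0071), Trbv4 (0.30 ± 0.09, 0.022) and Trav9n-4 (0.43 ± 0.13, 0.025). Trav14-2 lost the call in 10 of the 16 fits that left out a mouse.

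The shares of Trbv29 and Trbv3 changed in the Tcons, while in Tregs any IL-2 against PBS gave -0.07 ± 0.08 (adjusted p = 0.47) and -0.04 ± 0.04 (0.29). In isotype Tregs alone Trbv3 was called lower, as in Tcons, with WT IL-2 (-0.15 ± 0.06, adjusted p = 0.052) and with 3x (-0.14 ± 0.06, 0.059). Without isotype PBS replicates 1 and 4 and MHC II block WT IL-2 replicate 1 these values were -0.10 (0.29) and -0.09 (0.32). Among Tcons, any IL-2 against PBS gave 7 of 56 segments called, against 34.1% of all genes. Trbv29 took 3.75% to 5.16% of Trbv counts in the 4 PBS Tcon libraries and 4.67% to 8.40% in the 12 IL-2 libraries (0.55 ± 0.13, adjusted p = 0.012), and the ranges overlapped. Trbv3 took 12.3% to 15.5% and 10.9% to 12.9% (-0.30 ± 0.06, adjusted p = 0.0052), and Trav9n-4 7.67% to 10.0% and 6.05% to 8.42% of Trav counts (-0.35 ± 0.10, adjusted p = 0.021). These 3 calls held in each of the fits that left out a Tcon library. Trbv13-2 (0.18), Trbv12-1 (0.23), Trbv14 (-0.25) and Trbv4 (-0.21) each lost theirs in at least 2 of the 16 fits, Trbv13-2 in 9. In the same Tcon libraries 3 of 4 NK and NKT markers rose (Zbtb16 by 0.67, Klrb1c by 0.82 and Klrd1 by 0.58) and 3 of 4 gamma delta markers rose. Of the Treg markers Foxp3 (0.62 ± 0.24, adjusted p = 0.073) and Il2ra (1.43 ± 0.12, 2.5e-05) rose and Ctla4 and Ikzf2 did not pass, and all 3 erythroid markers rose (Hba-a1 by 2.78 ± 0.85, 0.032). The summed Treg markers were highest in Tcon isotype WT IL-2 replicate 2, at 1357 CPM against a median of 484 CPM over Tcons. Without that library 13 segments were called, and Trbv29, Trbv3 and Trav9n-4 kept their calls. The part of these markers' cells in the shares was not tested.

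In Tregs, any IL-2 was compared with PBS over both antibody arms. Of 55 segments 19 changed in share (11 rose, 8 fell), against 71.0% of all tested genes. The clearest change was the fall of Trav14-1. In isotype PBS mice its share was 5.04%, 6.44%, 4.47% and 6.97%, and in MHC II block PBS mice 5.37%, 5.21%, 5.27% and 5.03%. With the isotype antibody it was 3.67%, 2.78%, 3.22% and 2.79% after WT IL-2, 3.91%, 3.46%, 2.77% and 3.48% after H16R, and 2.71%, 4.15%, 3.55% and 4.03% after 3x. With MHC II block it was 3.91%, 3.65%, 4.39% and 4.16% after WT IL-2, 3.46%, 2.93%, 3.73% and 2.39% after H16R, and 2.74%, 2.54%, 2.72% and 1.50% after 3x.

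All 24 IL-2 treated Treg libraries thus lay below all 8 PBS libraries for Trav14-1, whose medians were 3.46% and 5.24% (-0.75 ± 0.10, adjusted p = 1.3e-07). Among all 55 segments it was the only one whose groups did not overlap in this contrast. The share of all genes whose groups did not overlap was not counted, and 71.0% of all genes were called here. Without isotype PBS replicates 1 and 4 and MHC II block WT IL-2 replicate 1 the change of Trav14-1 was -0.72 (adjusted p = 6.3e-06), and 9 of the 19 segments kept their call in this contrast while 10 lost it. Summed over its rows, the Trav14 family changed by -0.39 ± 0.05 (adjusted p = 1.6e-07). Against PBS of the same arm the share of Trav14-1 changed with WT IL-2 by -0.86 ± 0.17 under isotype antibody (adjusted p = 3.0e-04) and by -0.37 ± 0.17 under MHC II block (0.12). With H16R the changes were -0.73 ± 0.17 (8.9e-04) and -0.74 ± 0.17 (6.7e-04), and with 3x -0.65 ± 0.17 (0.0026) and -1.14 ± 0.17 (2.4e-06). These contrasts share the PBS mice of their arm. In Tcons the share of Trav14-1 was 4.53% to 5.34% in PBS mice and 2.75% to 5.76% in IL-2 mice, a difference of -0.05 ± 0.15 (adjusted p = 0.75).

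**Figure D3:**
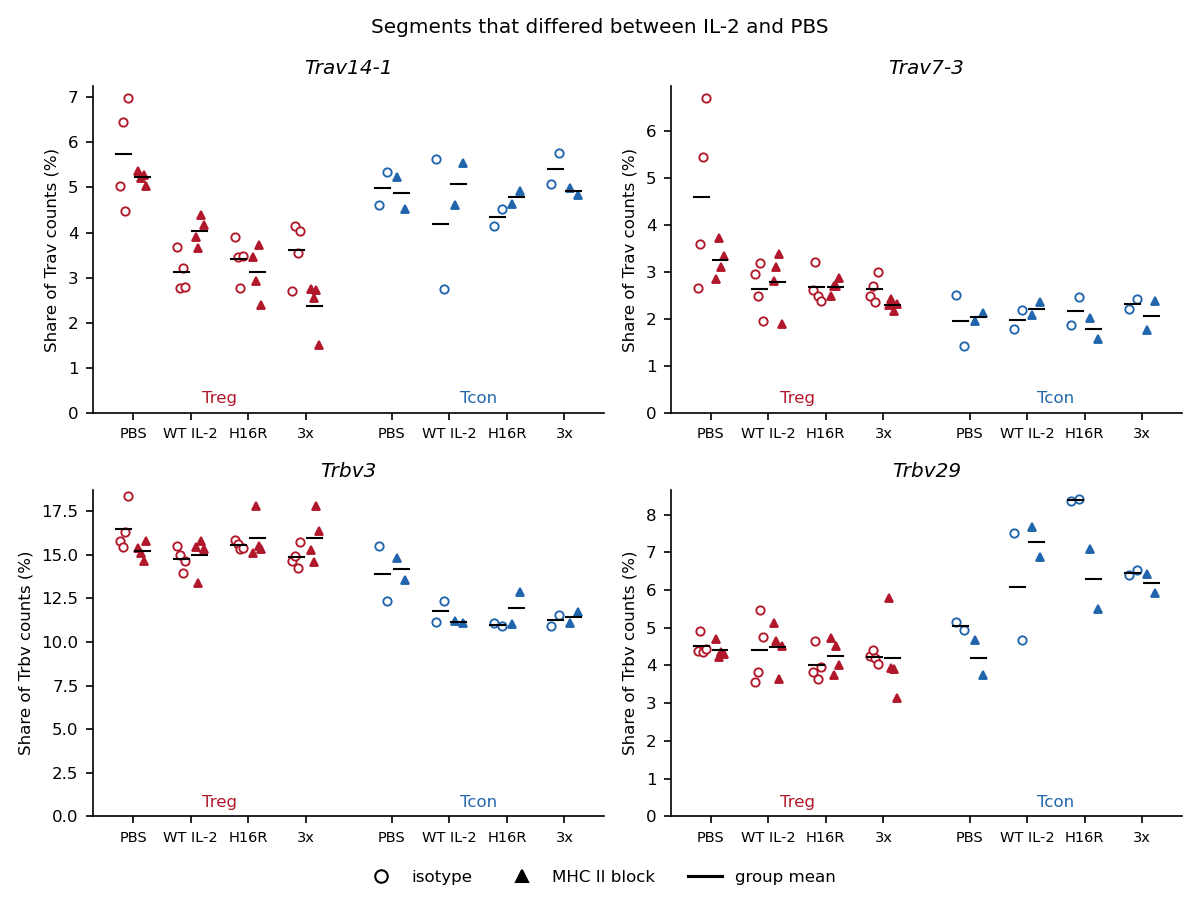
Share of the locus counts (percent) of Trav14-1, Trav7-3, Trbv3 and Trbv29 by treatment group in Tregs and Tcons; points are libraries and bars are group means. For Trav14-1 the PBS Tregs lie at 4.47% to 6.97% and the IL-2 treated Tregs at 1.50% to 4.39%, while Tcons overlap.

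Other alpha segments fell with IL-2 in Tregs. Trav7-3 was at 2.66% to 6.70% in PBS mice and 1.89% to 3.38% in IL-2 mice (-0.54 ± 0.11, adjusted p = 1.5e-04), and the Trav7 family, summed over its rows, changed by -0.21 ± 0.07 (0.0081). Trav7-3 had its highest values, 5.45% and 6.70%, in isotype PBS replicates 3 and 4. Trav14-3 (-0.30), Trav14d-3-dv8 (-0.25) and Trav8-1 (-0.28) passed at adjusted p of 0.052, 0.069 and 0.094. Without the same 3 libraries none of these 3 passed, at -0.28 (0.14), -0.13 (0.39) and -0.32 (0.11), while Trav7-3 was at -0.55 (1.0e-04). Trav6n-5 was fitted at -1.62 ± 0.63 (adjusted p = 0.026), but it reached the minimum through the PBS Tregs, 88.31% of its 31-base stretches lie in Trav6-5, and its count was near 0 in some libraries and 58.2 in another of the same group, so its value is uncertain. Trav13d-1 rose (0.57 ± 0.18, adjusted p = 0.0069), and without the 3 libraries it was at 0.50 (0.046). Trav6-4 (0.76) and Trav16d-dv11 (0.75) were also called higher, but they averaged 9.38 and 11.88 counts in PBS Tregs and 28.25 and 32.10 in IL-2 Tregs and were among the segments that reached the minimum through the latter. Without the 3 libraries neither passed (adjusted p = 0.11 and 0.13).

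Of the beta segments, Trbv16 fell by 0.22 ± 0.05 on the log2 scale (adjusted p = 5.3e-04) and Trbv12-2 by 0.13 (0.012), while Trbv13-3 (0.18 ± 0.07, 0.023; without the 3 libraries 0.12, 0.089) and Trbv1 (0.15 ± 0.05, 0.011) rose. Trbv4, Trbv14 and Trbv17 rose by 0.12 to 0.24 at adjusted p of 0.093, 0.075 and 0.090 and lost the call in 14, 7 and 14 of the 32 fits without a library, and each of these 3 lost it without the 3 libraries together (adjusted p = 0.33, 0.26 and 0.27). Trbv29, which rose in Tcons, lay at 4.23% to 4.91% in PBS Tregs and 3.15% to 5.79% in IL-2 Tregs. In Tregs the markers of other cells moved the opposite way from Tcons: all 4 gamma delta markers fell with IL-2 (Trdc by 0.82 ± 0.09), 2 of 4 NK and NKT markers fell (Zbtb16 by 0.94 ± 0.09) and 5 of 5 B cell markers fell. Their part in these shares was not tested.

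Fewer segments were called for each IL-2 molecule alone, where 4 libraries were compared with 4 and not 24 with 8. These counts therefore do not compare the size of the effects. Under isotype antibody 7 of 55 segments were called for WT IL-2 against PBS (45.5% of all genes), 8 for H16R (58.7%) and 8 for 3x (57.9%). Trav7-3 was lower by 0.75 ± 0.20, 0.74 ± 0.20 and 0.76 ± 0.20 with the 3 molecules (adjusted p = 0.0039, 0.0029 and 0.0024), beside the falls of Trav14-1 above. Summed over its rows, the Trav7 family changed less, by -0.28 ± 0.12 with WT IL-2 (0.061) and -0.24 ± 0.12 with 3x (0.090), and was not called with H16R. With WT IL-2 Trav14d-3-dv8 was also called lower (-0.62 ± 0.21, adjusted p = 0.019) and Trav16d-dv11 (1.59 ± 0.54, 0.021), Trav6-4 (1.04, 0.088) and Trav13-2 (0.74, 0.089) higher. Without the 3 libraries all 4 lost the call, at -0.39 (0.20), 1.48 (0.12), 0.66 (0.40) and 0.59 (0.31), so that of the 7 segments called with WT IL-2 those still called were Trav7-3 and Trav14-1. H16R raised Trbv1 (0.31 ± 0.09, adjusted p = 0.0038) and Trav9-2 (0.38, 0.057; without the 3 libraries 0.67, 0.0078), and with 3x Trbv26 (0.39, 0.044), Trav9-4 (0.33, 0.049) and Trbv20 (0.26, 0.089) were called higher. Without the 3 libraries those 3 calls with 3x were lost, at 0.32 (0.17), 0.14 (0.50) and 0.10 (0.59). Without isotype PBS replicate 4 alone the count for 3x was 4.

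Under MHC II block 1 of 55 segments was called for WT IL-2 against PBS (29.2% of all genes), 10 for H16R (61.0%) and 15 for 3x (66.7%). The segment called with WT IL-2 was Trav8-1 (-0.71 ± 0.25, adjusted p = 0.041), and the call was lost without MHC II block PBS replicate 4 or without MHC II block WT IL-2 replicate 1. H16R lowered Trbv24, an annotated pseudogene, by 0.48 ± 0.15 (0.011) and raised Trav8n-2 (0.74 ± 0.30, 0.035) and Trav13d-1 (0.67, 0.048), with Trav6d-5 at 0.69 (0.087). With 3x the beta segments Trbv14 (0.55 ± 0.17, 0.0056), Trbv31 (0.51 ± 0.18, 0.016) and Trbv13-3 (0.36 ± 0.11, 0.0087) rose with Trav13d-1 (0.64, 0.053), Trav6d-5 was at 0.68 (0.081), and Trbv16 fell (-0.53 ± 0.09, 9.6e-06).

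The share of Trbv16 was lowest after 3x in each arm. Its share under isotype antibody was 6.36%, 5.75%, 6.19% and 6.62% in PBS mice, 5.88%, 6.98%, 5.67% and 6.62% after WT IL-2, 5.67%, 6.22%, 4.87% and 7.10% with H16R, and 4.72%, 5.14%, 5.26% and 4.90% with 3x. Under MHC II block it was 5.80%, 6.81%, 5.81% and 6.49% with PBS, 5.57%, 5.76%, 5.86% and 5.86% with WT IL-2, 4.84%, 4.61%, 5.86% and 4.88% with H16R, and 4.48%, 4.47%, 4.22% and 4.09% with 3x. In both arms every 3x library was below every PBS and every WT IL-2 library, and under isotype antibody the H16R libraries overlapped with those of 3x. In Tcons the 4 libraries after 3x (5.32%, 4.64%, 4.78% and 4.94%) lay among the 4 after PBS (5.11%, 5.45%, 4.30% and 5.33%). Against PBS the change with 3x was -0.31 ± 0.09 (adjusted p = 0.0046) under isotype antibody and with H16R under MHC II block -0.30 ± 0.09 (0.0053).

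The muteins were also compared with WT IL-2 at the same dose and day. Under isotype antibody few shares differed: 1 of 55 for H16R (14.3% of all genes) and 2 of 55 for 3x (29.2%). The segment that differed with H16R was Trbv5 (-0.20 ± 0.07, adjusted p = 0.086), a call lost in some fits without a library, and those with 3x were Trbv16 (-0.33 ± 0.09, 0.0073) and Trav16d-dv11 (-1.09 ± 0.46, 0.088). Trav16d-dv11 reached the minimum through the IL-2 treated Tregs, so this call too is tied to how it was chosen. For Trav14-1 the differences from WT IL-2 were 0.13 ± 0.17 for H16R and 0.21 ± 0.17 for 3x, so neither passed (adjusted p = 0.72 and 0.42).

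Under MHC II block the muteins differed from WT IL-2 in more shares, 11 of 55 for H16R (51.9% of all genes) and 12 of 55 for 3x (60.9%). Trav4-2 was lower with both (-0.70 ± 0.24, adjusted p = 0.022, and -0.92 ± 0.24, 0.0024). Trav5-1 was called higher with both (0.81 ± 0.31, 0.035, and 0.85 ± 0.31, 0.021). It averaged 16.50 counts in PBS Tregs and 31.42 in IL-2 Tregs and reached the minimum through the latter, so these calls too are tied to how it was chosen. H16R further lowered Trav21-dv12 (-0.59, 0.045) and Trbv24 (-0.49, 0.011) and raised Trav8-1 (0.77 ± 0.25, 0.013). Trbv17 was also called higher (0.44, 0.078) but lost the call without the 3 libraries named above, at 0.41 (adjusted p = 0.13). With 3x, Trav14-1 (-0.76 ± 0.17, adjusted p = 5.6e-04) and Trbv16 (-0.42 ± 0.09, 2.8e-04) were lower and Trbv31 (0.71 ± 0.18, 0.0017) and Trbv14 (0.62 ± 0.17, 0.0026) higher. Both comparisons share the 4 WT IL-2 mice, of which replicate 1 held the highest myeloid (498 CPM) and erythroid (45.2 CPM) marker levels among Tregs. The interaction of any IL-2 and MHC II block was called for 1 of 55 segments (21.6% of all genes), Trbv15 (-0.25 ± 0.10, adjusted p = 0.090), a call lost in 19 of 32 fits without a library.

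MHC class II is what CD4 T cell receptors read, and its block was compared with isotype antibody over all Tregs. Of 55 segments 13 differed in share, against 45.7% of all tested genes. Trbv13-3, Trbv14, Trbv17 and Trbv31 rose, with Trav13d-1 (0.44 ± 0.14, adjusted p = 0.017) and Trav6-7-dv9 (0.21 ± 0.08, 0.030). Trbv15, Trbv16, Trbv5, Trbv12-1, Trbv20, Trav9-1 and Trav9-4 fell. Each of these calls held in all 32 fits that left out a library, except Trbv12-1, which lost it in 7. Without isotype PBS replicates 1 and 4 and MHC II block WT IL-2 replicate 1 together, Trbv12-1 (-0.12, adjusted p = 0.20) and Trbv5 (-0.08, 0.10) lost the call.

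Trbv13-3 had a share of 2.95% to 5.97% in the 16 isotype Treg libraries (median 5.33%) and 5.76% to 9.16% in the 16 MHC II block libraries (median 6.49%), with an overlap between 5.76% and 5.97% (0.36 ± 0.06, adjusted p = 1.9e-05). The change was 0.32 (adjusted p = 5.7e-06) without the 3 Treg libraries that stand apart in depth or markers, isotype PBS replicates 1 and 4 and MHC II block WT IL-2 replicate 1. In PBS mice it was 5.44%, 5.11%, 5.27% and 2.95% with isotype antibody and 6.02%, 5.80%, 6.41% and 5.92% with block. After WT IL-2 it was 5.43%, 4.85%, 5.57% and 4.93% against 6.72%, 7.72%, 6.06% and 5.76%, and after H16R 5.97%, 5.40%, 5.86% and 5.06% against 5.98%, 6.55%, 6.90% and 6.44%. After 3x it was 5.24%, 5.01%, 5.54% and 5.55% against 7.29%, 9.16%, 6.79% and 7.71%. Within each treatment every block library was thus above every isotype library. The same held within each of the 4 treatments in Tcons.

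Trbv14 had a share of 1.34% to 3.03% with isotype antibody and 1.97% to 4.41% with block (0.44 ± 0.08, adjusted p = 1.8e-04), and Trbv31 0.686% to 2.24% and 1.71% to 3.30% (0.41 ± 0.09, 7.0e-04). For both the difference of the 4 treatments was widest after 3x, though the differences between treatments were not tested. Trbv14 was at 2.03%, 2.41%, 2.33% and 2.08% in isotype 3x Tregs and 3.96%, 3.08%, 3.80% and 4.41% in block 3x Tregs (0.79 ± 0.17, adjusted p = 5.0e-04). Trbv31 was at 1.80%, 1.68%, 1.75% and 1.92% against 2.86%, 3.22%, 3.23% and 3.30% (0.82 ± 0.18, 7.1e-04). The 4 block 3x libraries were above the isotype 3x libraries for both segments without overlap.

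Trbv17 rose from 1.01% to 1.74% with isotype antibody to 1.31% to 4.22% with block (0.48 ± 0.10, adjusted p = 5.7e-04), its highest value being MHC II block H16R replicate 3. Trbv15 fell (-0.20 ± 0.04, adjusted p = 4.6e-04) from 6.62% to 8.34% with isotype antibody to 5.12% to 7.76% with block. The lowest group means were those of H16R and 3x under block. There it was 6.58%, 6.14%, 5.12% and 6.10% after H16R and 6.55%, 6.01%, 5.40% and 5.81% after 3x, while the block PBS libraries were at 7.56%, 6.96%, 6.62% and 7.11%. Trav9-1 (-0.34 ± 0.10, 0.011) and Trav9-4 (-0.25 ± 0.07, 0.0043) fell among alpha segments, and the Trav9 family, summed over its rows, by 0.13 ± 0.04 (0.011).

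By treatment the block changed 15 of 55 shares in 3x Tregs (47.4% of all genes), 8 in H16R Tregs (24.5%), 2 in WT IL-2 Tregs (30.6%) and 2 in PBS Tregs (12.4%). In 3x Tregs the largest falls were Trav14-1 (-0.60 ± 0.17, adjusted p = 0.0067), Trbv26 (-0.58 ± 0.16, 0.0044) and Trav9-4 (-0.56 ± 0.13, 0.0015), and Trbv13-3 rose by 0.54 ± 0.11 (5.2e-04). In H16R Tregs Trbv17 rose (0.71 ± 0.20, 0.018) and Trbv15 (-0.35 ± 0.09, 0.0072), Trav7-5 (-0.68, 0.089), Trav9-1 (-0.61, 0.044) and Trav4-3 (-0.49, 0.079) fell, and the count was 2 without MHC II block H16R replicate 3 and also 2 without isotype H16R replicate 4. Trbv13-3 rose and Trbv5 fell in both WT IL-2 Tregs (0.34 ± 0.12, adjusted p = 0.033, and -0.22 ± 0.07, 0.031) and PBS Tregs (0.34 ± 0.12, 0.080, and -0.21 ± 0.08, 0.088). In PBS Tregs no segment was called without isotype PBS replicate 4, and the same was true without block PBS replicates 1, 2 or 4.

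**Figure D4:**
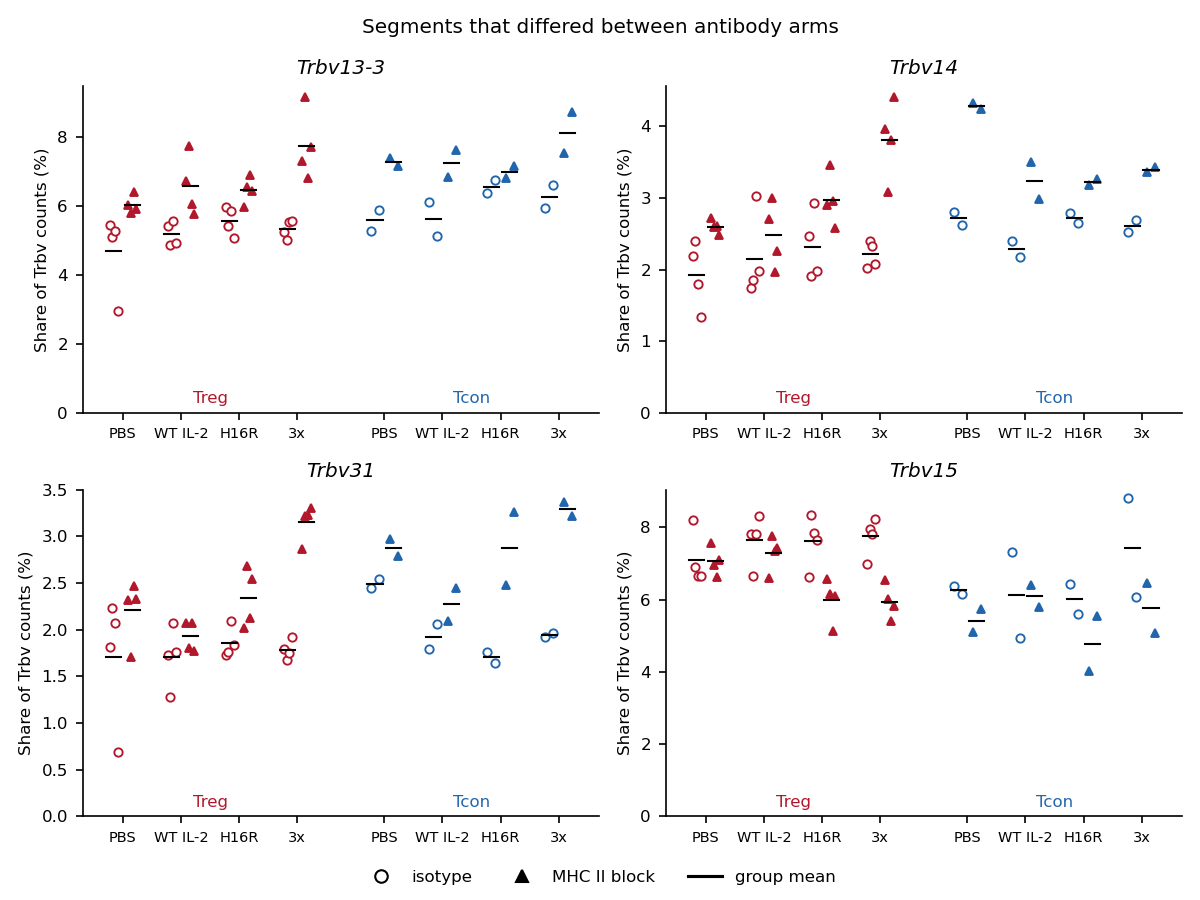
Share of Trbv counts (percent) of Trbv13-3, Trbv14, Trbv31 and Trbv15 in the 8 Treg and 8 Tcon groups; points are libraries and bars are group means. Trbv13-3 is higher with MHC II block than with isotype antibody in every treatment of both fractions, and Trbv14 and Trbv31 reach 4.41% and 3.30% in block 3x Tregs.

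In Tcons the block changed 8 of 56 shares, against 27.0% of all tested genes. Of these 7 rose (14.5% of all genes did) and 1 fell (12.5%). Trbv14 took 2.18% to 2.80% in the 8 isotype Tcon libraries and 2.99% to 4.33% in the 8 block libraries (0.45 ± 0.06, adjusted p = 0.0024). Trbv13-3 took 5.11% to 6.74% and 6.81% to 8.71% (0.30 ± 0.06, 0.013), so for both segments the groups did not overlap. Trbv31 took 1.65% to 2.54% and 2.09% to 3.37% (0.49 ± 0.10, 0.013), with overlap. Trav6d-5 (0.52), Trav14-2 (0.39), Trav13d-1 (0.36) and Trav8d-1 (0.30) rose at adjusted p of 0.066 to 0.094, and Trbv2 fell (-0.16, 0.091). Within each of the 4 treatments the block Tcons were above the isotype Tcons for all 3 of these segments. By means the log2 ratio for Trbv14 was 0.66 in PBS mice and 0.50, 0.25 and 0.38 after WT IL-2, H16R and 3x, and that for Trbv31 0.21, 0.24, 0.75 and 0.76, with 2 mice a group. Trbv17 had no common direction over the treatments in Tcons. Without isotype 3x replicate 1 the count was 3.

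The Tregs and Tcons of a mouse are not independent, and the rise of Trbv13-3 was also seen in the mice without a Tcon library, where isotype Tregs ranged from 2.95% to 5.86% and block Tregs from 5.76% to 7.71%. Markers moved with the block in Tregs. Of the 4 Treg markers 3 fell, Foxp3 by 0.09 ± 0.03 on the log2 scale, Ctla4 by 0.23 ± 0.05 and Ikzf2 by 0.22 ± 0.05. All 4 NK and NKT markers rose (Ncr1 by 1.15 ± 0.10), as did 4 of 4 gamma delta markers (Tcrg-C1 by 0.43 ± 0.09), both CD8 markers, 4 of 5 B cell, 5 of 5 myeloid and both tested erythroid markers (Hba-a1 by 1.34 ± 0.40), and the recombinase gene Rag1 (1.63 ± 0.29). Dntt, which encodes the enzyme that adds bases at the joints during recombination, rose with the block in Tregs (1.26 ± 0.14, adjusted p = 4.5e-08) and in Tcons (1.72 ± 0.11, 4.9e-06). In Tcons 1 of 4 NK and NKT markers and 1 of 4 gamma delta markers fell with the block, 2 of 5 B cell markers fell and 2 of 5 myeloid markers rose. Of the Treg markers Il2ra (-0.29 ± 0.10, adjusted p = 0.053) and Ikzf2 (-0.59 ± 0.22, 0.079) fell in Tcons. Foxp3 (-0.38 ± 0.20) and Ctla4 (-0.52 ± 0.28) did not pass there. The part of these cells, and of cells with Dntt or Rag1, in the shares was not tested.

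Shares leave out how much receptor RNA a library held, so the segments were also fitted on the level scale, relative to all genes. Any IL-2 changed the level of 31 of 55 segments in Tregs (71.1% of all genes), with 29 higher (35.5% of all genes were) and 2 lower (35.6%). In the same contrast the alpha constant gene Trac rose by 0.35 ± 0.06 (adjusted p = 1.9e-05) and Cd3e, a chain of the CD3 complex, by 0.45, while the beta constant genes stood at -0.03 ± 0.05 for Trbc1 (0.63) and 0.09 ± 0.04 for Trbc2 (0.057). Of 13 genes of the receptor and its proximal signalling 11 rose and 1 fell. The median level change was 0.12 over the 21 Trbv and 0.35 over the 34 Trav segments tested. With MHC II block 9 of 55 levels differed in Tregs (45.7% of all genes), and Trac, Trbc1 and Trbc2 changed by 0.01, 0.03 and 0.01 with no call.

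Between Tregs and Tcons 29 of 58 levels differed (72.5% of all genes), 24 higher in Tregs (34.3% of all genes) and 5 lower (38.2%). Trbv12-1 was higher by 1.20 on the level scale, above its 0.86 on the share scale, as Trbc1 (0.25 ± 0.03), Trbc2 (0.27 ± 0.03), Trac (0.18 ± 0.05) and Cd3e (0.36) were higher too. Of the 13 receptor genes 12 were higher in Tregs and 1 lower. The ratio of Trbv to beta constant counts was 0.241 to 0.375 in Tregs (median 0.339) and 0.295 to 0.344 in Tcons, and that of Trav to Trac counts 0.445 to 0.546 and 0.474 to 0.552. Isotype PBS replicate 4 had the lowest of both ratios in Tregs.

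The summed Trbv level was 159 to 318 CPM in Tregs (median 294) and 192 to 282 CPM in Tcons (median 232), and the summed Trav level 40.0 to 109 CPM (median 88.7) and 59.2 to 104 CPM (median 80.1). In two-sided exact permutation tests of 4 against 4 Treg libraries, where the smallest possible p is 0.029, 4 of 20 comparisons reached that value and 0 passed after adjustment (smallest adjusted p = 0.127). After TMM scaling 7 passed, and 12 did without isotype PBS replicate 3. The widest difference on the log2 scale was in isotype Tregs for Trav, from 69.4 ± 20.7 CPM with PBS to 96.6 ± 6.51 CPM with WT IL-2 (SD, n = 4 each; exact permutation p = 0.0571, adjusted p = 0.127). The PBS mean was lowered by isotype PBS replicate 4, at 40.0 CPM, where the other isotype PBS libraries were at 72.86 to 88.49 CPM.

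Evenness, the Shannon entropy of the segment shares divided by its maximum (1 where all segments are equal), spanned a narrow range and is given as a description. For Trbv it was 0.9191 ± 0.0050 in Tregs and 0.9241 ± 0.0039 in Tcons of the same mice, lower in Tregs in 14 of 16. The direction of the mean difference turned on FPKM shares (0.0008) and on shares summed by family (0.0014), against -0.0050 here. The effective number of equally used segments had medians of 13.9 over all 32 Treg libraries and 14.6 over the 16 Tcon libraries. Group means in Tregs ran from 0.907 ± 0.0204 in isotype PBS to 0.9213 ± 0.0031 in MHC II block WT IL-2 (SD, n = 4). The spread of isotype PBS came from replicate 4, at 0.8776. For Trav the same-mouse values were 0.9303 ± 0.0082 and 0.9325 ± 0.0061, lower in Tregs in 8 of 16 mice, with group means in Tregs from 0.9254 ± 0.0123 in isotype PBS to 0.939 ± 0.0007 in isotype 3x.

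**Figure D5:**
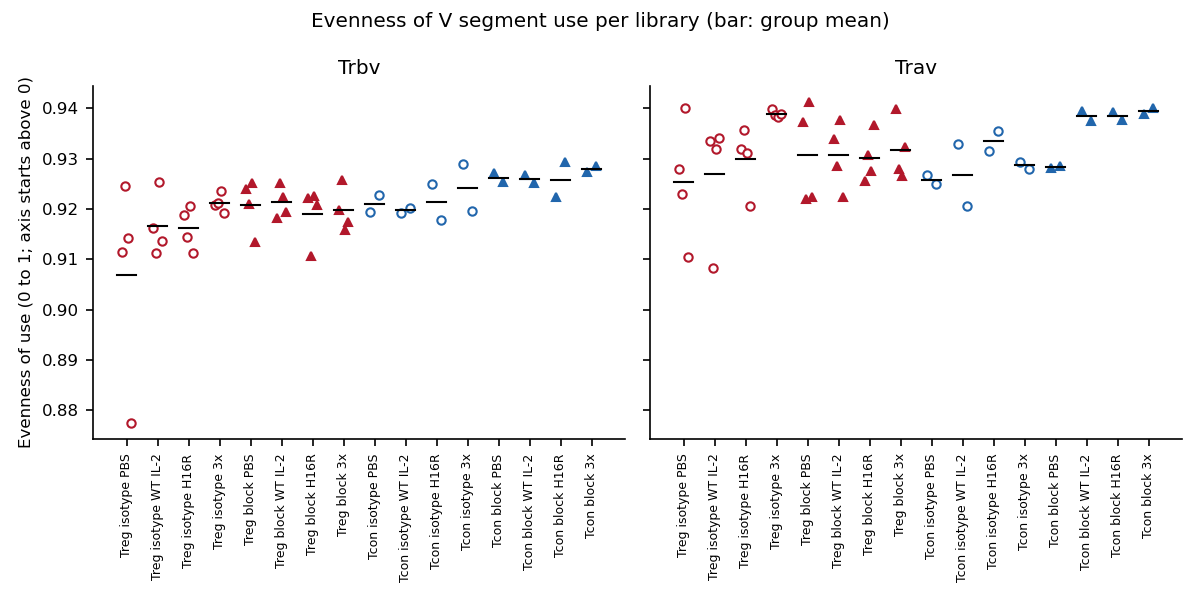
Evenness of Trbv and Trav shares (no unit, axis starting above 0) by group in Tregs and Tcons; points are libraries and bars are group means. Most libraries lie between 0.91 and 0.94, and the lowest is an isotype PBS Treg library at 0.8776 for Trbv.

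IL-2 treated Tregs were 0.0051 above PBS Tregs in Trbv evenness and MHC II block Tregs 0.0050 above isotype Tregs. Leaving out a library moved the first of these between -0.0001 and 0.0067 and the second between 0.0024 and 0.0056. The value of -0.0001 was that without isotype PBS replicate 4. For Trav the differences were 0.0033 (0.0008 to 0.0052) and 0.0005 (-0.0009 to 0.0012).

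Within a group the share of a Trbv segment varied between mice with a median coefficient of variation of 12.0% (6.16% to 25.7%), where counting error alone gives 4.72%. For Trav segments it was 24.1% (13.3% to 125%) against 13.0%, with Trav6n-5 highest. Among the 30 segments with at least 100 counts, 960 values of a segment in a Treg library lay a median of 0.08 on the log2 scale from the median of their group, and 27 lay over 0.5 away. The farthest was Trbv31 in isotype PBS replicate 4, with 20 of 2914 counts or 0.686% (95% exact binomial interval 0.420% to 1.06%) against a group median of 1.94%. Trbv13-2 in that library was at 3.57% (2.93% to 4.31%) against 7.14%, and Trav14d-3-dv8 at 6.97% of 731 counts (5.24% to 9.07%) against 3.64%. These intervals cover counting error only.

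Outside that library, Trbv17 reached 4.22% of 10115 counts in MHC II block H16R replicate 3 (3.84% to 4.63%) against a group median of 2.12%. Trav10 reached 7.63% of 3436 counts in MHC II block H16R replicate 1 (6.76% to 8.56%) against 4.22%. In each of the 8 conditions the 2 mice with both fractions were set against their own mean, for Tregs and for Tcons. These 2 mice deviate in mirror image, so replicate 1 alone was used. Over 28 segments its deviations in Tregs and in Tcons had correlations of -0.07 to 0.43 (median 0.36, above 0 in 7 conditions), given as a description over segments of the same mice.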

How the data were processed

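RNA of Tregs of 32 mice and Tcons of 16 of them was sequenced as stranded poly(A) libraries (150 nt, paired). The authors deposited expected counts from RSEM after alignment to GRCm38, with no normalization, and whole numbers make up 75.6% of those above 0. FPKM as deposited, from the same RSEM run, served for comparisons between segments and as an alternative. Tables of DESeq2 comparisons (log2 fold changes and p-values that the authors deposited) were not used. The version in the submitters' processing notes is DESeq2 1.30.1. The matrix holds 0 columns of other samples. Positions and sequences are those of GENCODE vM21 transcripts on GRCm38.

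Expected counts were rounded and fitted in R 4.3.3 with the quasi-likelihood test of edgeR 4.0.16, on genes above 0.5 CPM in at least 4 fitted libraries and without an empty cell. For shares, the V rows carried the log of their locus total (Trbv or Trav) as offset and other genes the TMM-scaled library size; for levels all genes carried the latter. Tregs were fitted over their 8 groups, Tcons with antibody and treatment as additive terms, and Tregs against Tcons with the mouse as block, since the labels give both libraries of a mouse its number. P-values were adjusted with Benjamini-Hochberg over all tested genes, with 0.1 as threshold. Depth was 18.28 M to 51.95 M counts per library. Binomial intervals are exact (Clopper-Pearson, 95%). The scripts were tested on simulated data.

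The segments named are the 10 Trbv and 10 Trav with the highest mean share in Tregs, the 3 largest called rises and falls of each comparison, the 5 values farthest from their group, Trav11, Trav11d, Trav1, the constant genes, and listed markers. Trbv13-1, Trav14-3, Trav14n-3, Trav7d-3 and Trav8d-1 fall outside this rule and, like further called segments, were named after their values were seen. The members, gene lists and tests were chosen with earlier results of these data known. Alternatives (DESeq2 1.42.0, limma 3.58.1 on log2 FPKM, filters, thinning, families, left-out libraries) are given in the closing section; a GC correction and a fit without isotype PBS replicates 1 and 4 and MHC II block WT IL-2 replicate 1 were added after seeing the data. In the labels 2 isotype WT IL-2 Treg libraries carry the same mouse number and are named replicates 3a and 3b; p-values measure the spread between these libraries.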

Additional observations from a re-analysis of the deposited data

Results flagged for a closer look

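In 192 sets of 4 libraries (the most used segments, evenness and summed levels, by group) 8 held a library far from the other 3 by Dixon's test, where chance gives about 1 in 20, or 9.60. Isotype PBS replicate 4, the shallowest library, accounts for 3 of these. Its share of Trbv2 was 10.4% (others 6.04% to 6.43%), of Trbv13-3 2.95% (5.11% to 5.44%) and of Trav14d-3-dv8 6.97% (3.53% to 3.64%). Isotype WT IL-2 replicate 2 had a Trav evenness of 0.9083 (0.9319 to 0.9342), and MHC II block PBS replicate 3 a summed Trbv level of 287 CPM (308 to 311). MHC II block H16R replicate 2 had a Trbv evenness of 0.9106 (0.9208 to 0.9226) and a Trbv3 share of 17.8% (15.1% to 15.5%). MHC II block 3x replicate 4 had a Trav14-1 share of 1.50% (2.54% to 2.74%).

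An effect differed between groups by an interaction term for 8 values. The effect of any IL-2 on Trbv15 differed between the antibody arms of Tregs by -0.25 on the log2 scale. The Treg to Tcon difference differed between IL-2 and PBS mice by -0.68 for Trav14-1, -0.49 for Trav14-2, -0.42 for Trav14d-3-dv8 and -0.61 for Trbv29, and by 0.43 for Trav9n-4, 0.28 for Trbv3 and 0.30 for Trbv4.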

How the results depend on the processing

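Counts of called segments moved by over 1.5 times mainly in comparisons of 4 against 4 libraries with few calls; the causes were not tested. Of 24 comparisons, DESeq2 kept 24 within 1.5 times. Without a filter, 3x against PBS with isotype antibody had 5 calls, 3x against WT IL-2 with isotype 1, H16R against WT IL-2 0 with isotype and 6 with MHC II block, the interaction 0, the block in H16R Tregs 3, in PBS Tregs 0 and in Tcons 3, and any IL-2 in Tcons 4. Summed by family (fewer features), 3x against PBS with block had 8, 3x against WT IL-2 5 with isotype and 7 with block, any IL-2 in Tregs 10, H16R against PBS with isotype 5, the interaction 2 and the block in PBS Tregs 1. Thinned to the smallest library, 3x against WT IL-2 with isotype had 1, H16R against WT IL-2 with block 6, the block in H16R Tregs 5 and in PBS Tregs 1, and WT IL-2 against PBS with isotype 4. With limma on log2 FPKM, H16R against PBS with isotype had 14, the interaction 4, the block in PBS Tregs 4 and WT IL-2 against PBS with block 2. Fitted on only the groups compared, 3x against WT IL-2 with isotype had 4, the block 0 in PBS Tregs and 4 in WT IL-2 Tregs, and WT IL-2 against PBS with isotype 4. Without isotype PBS replicate 1 and MHC II block WT IL-2 replicate 1 together, H16R against PBS with isotype had 14, the interaction 4, the block 4 in PBS Tregs and 1 in WT IL-2 Tregs, and WT IL-2 against PBS with block 0. With isotype PBS replicate 4 left out as well, 3x and H16R against WT IL-2 with isotype had 6 and 2, the block in PBS Tregs 0 and WT IL-2 against PBS with block 0. Removing each library's GC trend left 191 of 193 calls, with 204 in all.

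Replicate numbers did not pair the Treg groups (correlations of deviations -0.36 to 0.53, 23 of 112 over 0.1). With the replicate block the interaction had 0 calls and WT IL-2 against PBS with block 2; the other 17 of 19 counts stayed within 1.5 times. Without the mouse as replicate block, Tregs against Tcons had 36 calls in shares.

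Leaving out a library in turn gave 33 to 37 calls for Tregs against Tcons, 6 to 10 for its difference by IL-2, 14 to 22 for any IL-2 in Tregs, 3 to 13 in Tcons, 12 to 17 for the block in Tregs and 3 to 10 in Tcons. For levels it gave 27 to 32 between Tregs and Tcons, 26 to 35 for any IL-2 and 8 to 15 for the block. With isotype antibody, the ranges against PBS were 5 to 9 for WT IL-2, 7 to 13 for H16R and 4 to 13 for 3x, and against WT IL-2 0 to 1 for H16R and 1 to 4 for 3x. With block they were 0 to 4, 7 to 13 and 11 to 19 against PBS, and 6 to 16 and 10 to 14 against WT IL-2. The block gave 0 to 4 in PBS, 1 to 3 in WT IL-2, 2 to 12 in H16R and 10 to 16 in 3x Tregs, and the interaction 0 to 4. Any IL-2 in Tcons had 13 calls without isotype WT IL-2 replicate 2 and 3 without block PBS replicate 2. Single segments whose share was called gave 193 results: of 7102 values under alternatives 660 lost the call and 0 reversed.

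The summed levels had 0 called comparisons, 7 after TMM scaling, and 0 to 12 when a library was left out (12 without isotype PBS replicate 3). Evenness differences are small enough to change sign. For Trbv, Treg minus Tcon was 0.0008 on FPKM shares and 0.0014 by family, against -0.0054 to -0.0040 without a mouse; over all rows of the locus IL-2 minus PBS was -0.0046 and block minus isotype -0.0003, against -0.0001 to 0.0067 and 0.0024 to 0.0056 without a library. For Trav, IL-2 minus PBS was -0.0004 thinned and -0.025 as inverse Simpson number, and block minus isotype -0.0001 on FPKM shares, -0.0012 thinned and -0.197 as inverse Simpson number; without a library or mouse Trav differences ran from 0.0008 to 0.0052, from -0.0009 to 0.0012 and, Treg minus Tcon, from -0.0030 to -0.0014. The smallest locus totals, 2914 Trbv and 731 Trav counts, limit what can be seen in isotype PBS Tregs.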
